A study of Mus musculus with 3 samples.

Results

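Surface ectoderm is the outer epithelial sheet of the embryo, and the otic vesicle forms when a thickened patch of it beside the hindbrain folds in and pinches off. The transcription factor p63 (Trp63) commits this sheet to an epidermal fate, AP-2 factors (Tfap2a, Tfap2b, Tfap2c) act with it, and the sheet signals to the tissue below through Wnt ligands, BMP antagonists and guidance factors. At mid-gestation it is a simple epithelium with a flat covering layer, the periderm, and it has not yet made the layers of keratinised skin. Cells of this sheet that came along with dissected E10.5 mouse otic vesicles are described here. A barcode was taken as surface ectoderm if it had at least 1000 detected genes, at most 10% mitochondrial counts and at least 1 count of the epithelial adhesion molecule Epcam, if at least 3 of 6 markers (Trp63, Krt14, Krt15, Perp, Tfap2a and Wnt6) had a count, and if the otic genes Fbxo2, Hmx2, Hmx3 and Pax2 had at most 1 count together. The rule found 187 cells among the 26130 that passed the quality filter.

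The cells came from 3 single-cell RNA sequencing libraries of pooled otic vesicles. CD replicate 1 was made from heterozygous Sox9Y440X/+ embryos, which carry 1 Sox9 allele with a premature stop, and gave 72 surface ectoderm cells. WT replicates 1 and 2 were made from wild type embryos and gave 42 and 73 such cells. The labels give neither the number nor the sex of the pooled embryos, and nothing in them says that the WT pools were separate litters. A p-value here thus rests on how the WT pair varied, with CD assumed to vary like WT, and that variation may be technical. The counts come from the 3′ ends of transcripts and cannot show the mutated codon, so the genotype was not checked.

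Depth was similar across the 3 libraries for these cells but lower than in otic epithelium. A surface ectoderm cell had a median of 14816 unique molecular identifiers (UMIs, counted transcript molecules) in CD replicate 1, 14484 in WT replicate 1 and 14692 in WT replicate 2. The otic epithelium used for comparison (Epcam-positive cells with at least 3 UMIs of the 4 otic genes and fewer than 3 markers) had medians of 24144, 26532 and 19818 UMIs in the same order of libraries, over 2256, 2168 and 3426 cells. Levels are given as CPM (counts per 1000000), scaled to the UMIs summed over the cells of a class in 1 library. Pairs of libraries shared between 28 and 55 barcodes among all barcodes, kept or not. No barcode was a surface ectoderm cell in both libraries of a pair. A doublet caller marked 4 of the 72, 2 of the 42 and 3 of the 73 cells.

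The markers are described first, and because the rule itself used them they do not check the label. Wnt6, a secreted Wnt ligand of the ectoderm, had a UMI in 98.6% of the cells in CD replicate 1, and in 90.5% and 98.6% of those in WT replicates 1 and 2, and it was the marker most often found in otic cells too (39.6%, 35.1% and 31.2%). Trp63 was detected in 86.1% (exact 95% interval 75.9 to 93.1), 78.6% and 82.2% of the cells, against 0.842%, 0.461% and 0.613% of otic cells. Perp, a desmosomal protein under p63 control, and Tfap2a were each detected in over 90% of the cells of every library. The basal keratin Krt14 was rare, in 9.72% and 9.52% of the cells of CD replicate 1 and WT replicate 1 and in 27.4% of those of WT replicate 2, and Krt15, another basal keratin, was found in 19.4%, 16.7% and 21.9%. The selection thus rests mainly on Trp63, Perp, Tfap2a and Wnt6, and their high detection follows in part from the rule. All intervals here cover counting error only.

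Cells on both sides of the threshold were compared. The 46 cells with exactly 3 markers had 300 CPM of Tfap2b, 275 CPM of the chemokine Cxcl14 and 14.0 CPM of the otoconial gene Oc90, and 168 CPM of the mesenchyme gene Prrx1. The 220 cells with exactly 2 markers that met the other conditions had 21.0 CPM of Tfap2b, 7.25 CPM of Cxcl14, 437 CPM of Oc90 and 35.5 CPM of Prrx1. Among the members, Prrx1 stood at 142 CPM in the 30 cells with 1 otic UMI and at 18.7 CPM in the 157 cells with none. A further 70 cells had at least 3 markers but 2 or more UMIs of the 4 otic genes, with a median depth of 37646 UMIs, 42.3 CPM of Tfap2b and 573 CPM of Oc90.

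Surface ectoderm cells made up 0.842% of kept cells in CD replicate 1 (exact 95% interval 0.660 to 1.06), against 0.640% (0.462 to 0.864) in WT replicate 1 and 0.663% (0.520 to 0.832) in WT replicate 2. The intervals overlap and 1 CD library cannot be set against a spread. When every cell was first thinned to 5000 UMIs the rule found 0.454%, 0.409% and 0.417%, so the shares depend on depth.

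Surface ectoderm was first set beside otic epithelium of the same library. Because the rule picked its cells by this very contrast, the ratios are descriptions without a test, and they are computed on CPM + 1, which understates the ratio of genes near 0 in otic cells. Of 3281 genes outside the rule with at least 50 CPM in all 3 libraries of surface ectoderm or of otic epithelium, 46 were at least 4-fold higher in surface ectoderm in all 3 libraries (1.4%) and 33 at least 4-fold lower (1.01%). The genes with the most even large differences are named below, leaving out the genes of the rule.

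Transcription factors and their partners came first. Tfap2b, an AP-2 factor of ectoderm and neural crest, had 459, 422 and 505 CPM in surface ectoderm (CD replicate 1, WT replicate 1 and WT replicate 2, the order kept below), against 1.71, 1.07 and 1.48 CPM in otic epithelium. Its ratios were 169-fold, 205-fold and 204-fold, and its smallest ratio over the libraries was the largest of the named genes. It was detected in 87.5%, 95.2% and 97.3% of surface ectoderm cells, against 1.51%, 1.38% and 1.61% of otic cells. At 5000 UMIs per cell these shares were 73.9%, 73.2% and 88.7% in surface ectoderm and at most 0.504% in otic epithelium. Tfap2c, another AP-2 factor of early ectoderm, reached 44.9, 25.1 and 32.9 CPM against under 1 CPM in otic cells. Grhl3, a grainyhead factor of the epidermal barrier, stood at 18.1, 13.3 and 9.51 CPM against 0.165, 0.107 and 0.0767 CPM. Foxi2, a forkhead factor of cranial ectoderm, was high in CD replicate 1 (153 CPM) and WT replicate 1 (128 CPM), lower in WT replicate 2 (48.4 CPM) and under 0.1 CPM in otic cells of every library. Hoxb2, a hindbrain-level Hox gene, had 59.4, 61.9 and 37.2 CPM in surface ectoderm, against 5.64, 4.61 and 2.66 CPM in otic cells, while Hoxa4, Hoxa5, Hoxb4, Hoxb5 and Hoxd4 had no UMI in surface ectoderm.

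Several of the leading genes encode secreted signals, inhibitors and their receptors. Cxcl14, a chemokine made by skin epithelium, had 235, 261 and 525 CPM in surface ectoderm of CD replicate 1, WT replicate 1 and WT replicate 2, against 0.987, 0.762 and 0.652 CPM in otic epithelium. Sostdc1, which blocks BMP and Wnt signalling around hair and tooth placodes, had 569, 671 and 745 CPM against 12.0, 10.6 and 14.7 CPM. Both were far above otic epithelium in each library, and Cxcl14 was about as high in CD replicate 1 as in WT replicate 1. Ntf5, the neurotrophin that acts on TrkB, had 72.4, 79.6 and 76.1 CPM against 1.99, 1.63 and 1.34 CPM. Sema3c, a secreted semaphorin, had 142, 162 and 90.8 CPM against 8.03, 5.03 and 4.55 CPM, and Plxna2, a semaphorin receptor, 212, 198 and 176 CPM against 9.64, 4.69 and 5.79 CPM. Jag2, a Notch ligand of the periderm, had 65.2, 75.2 and 60.5 CPM against 2.19, 2.48 and 2.62 CPM. Over the libraries Tfap2b averaged 462 ± 41.8 CPM in surface ectoderm and 1.42 ± 0.327 CPM in otic epithelium (SD, n = 3 each).

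Other leading genes belong to growth control, metabolism and the cell cortex. Sfn, which encodes a regulator of keratinocyte growth, had 197, 189 and 234 CPM in surface ectoderm, against 4.34, 3.84 and 2.59 CPM in otic epithelium. The glucose transporter gene Slc2a3, the glycosyltransferase gene Galnt18, the scaffold gene Ahnak, the small heat shock gene Hspb1 and the annexin gene Anxa2 were also among the 15, and their smallest ratio in any library was 15.3-fold (Anxa2, CD replicate 1). The 15 were chosen for their ratios, so that no surface ectoderm library overlapped an otic one for them follows from the choice.

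**Figure D1:**
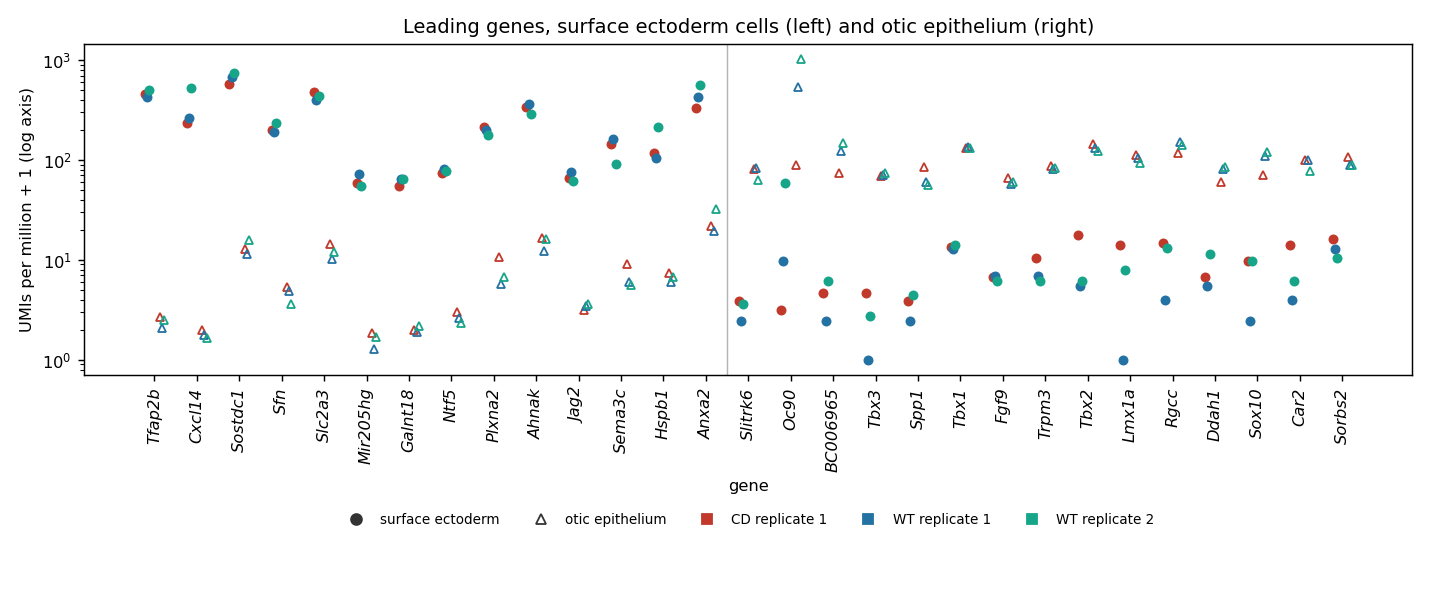
Level of 14 leading genes higher in surface ectoderm and the 15 lower, in CPM + 1 on a log axis, with 1 point per library, filled circles for surface ectoderm and open triangles for otic epithelium. Tfap2b stands near 459 CPM in surface ectoderm of CD replicate 1 and at 1.71 CPM in its otic epithelium, and Oc90 spreads over the libraries in both classes.

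Mir205hg, the host transcript of the epithelial microRNA miR-205, was also among the 15, with 57.2, 70.8 and 54.5 CPM in surface ectoderm and 0.856, 0.289 and 0.677 CPM in otic epithelium. Poly(A)-primed libraries count the host transcript and not the mature microRNA. Its mature strands are shown because it is a regulatory RNA among the leading genes, with the seed (bases 2 to 8), the stretch that pairs with targets, in capitals. They are taken from RefSeq (build GRCm38.p6, minus strand), the 5p strand at chr1:193507503-193507524 and the 3p strand at chr1:193507467-193507488.
mmu-miR-205-5p: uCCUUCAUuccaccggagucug
mmu-miR-205-3p: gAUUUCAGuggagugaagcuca

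Since the AP-2 gene Tfap2b led the list, the promoters of the genes at least 4-fold higher were searched for the AP-2 palindrome GCCNNNGGC. This palindrome reads the same on both strands. RefSeq promoter windows (300 bases, from 250 before to 50 after a gene's start, build GRCm38.p6) were found for 35 of the 46 genes. The palindrome was in 12 of these 35 (34.3%), against 5013 of 27025 genes with a window (18.5%). Base composition was not matched, and a match is a description of the letters, not a bound site. A window with the match, in capitals, is shown for Mir205hg (chr1:193510161-193510460, minus strand), Sema3c (chr5:17574566-17574865, plus strand) and Jag2 (chr12:112929446-112929745, minus strand), and Tfap2b (chr1:19211804-19212103, plus strand) is shown as the leading gene, whose window held none.
Mir205hg: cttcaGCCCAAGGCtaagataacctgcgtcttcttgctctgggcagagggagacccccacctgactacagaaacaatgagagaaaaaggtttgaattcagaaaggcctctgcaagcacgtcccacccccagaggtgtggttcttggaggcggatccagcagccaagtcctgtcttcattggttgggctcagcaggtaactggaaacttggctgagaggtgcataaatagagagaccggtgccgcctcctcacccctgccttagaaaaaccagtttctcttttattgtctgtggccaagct
Sema3c: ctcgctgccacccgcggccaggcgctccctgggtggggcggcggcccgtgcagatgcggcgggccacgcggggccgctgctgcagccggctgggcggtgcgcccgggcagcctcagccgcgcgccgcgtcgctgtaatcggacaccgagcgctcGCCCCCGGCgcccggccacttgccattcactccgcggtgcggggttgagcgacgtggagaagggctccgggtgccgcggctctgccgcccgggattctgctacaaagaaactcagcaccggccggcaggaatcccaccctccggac
Jag2: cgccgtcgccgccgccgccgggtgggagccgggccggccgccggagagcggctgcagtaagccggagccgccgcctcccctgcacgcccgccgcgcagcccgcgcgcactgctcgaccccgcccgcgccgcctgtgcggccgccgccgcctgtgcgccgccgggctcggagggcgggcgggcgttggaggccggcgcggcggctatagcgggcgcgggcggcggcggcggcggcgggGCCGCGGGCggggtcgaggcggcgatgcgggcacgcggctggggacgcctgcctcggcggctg
Tfap2b: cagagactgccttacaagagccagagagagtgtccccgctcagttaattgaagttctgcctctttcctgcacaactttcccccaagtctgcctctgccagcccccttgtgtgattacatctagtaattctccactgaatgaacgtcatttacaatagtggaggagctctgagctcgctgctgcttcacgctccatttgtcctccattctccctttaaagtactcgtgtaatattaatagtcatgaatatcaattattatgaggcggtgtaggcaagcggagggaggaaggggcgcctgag

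Several of the genes lowest in surface ectoderm against otic epithelium were otic genes that the rule did not use. The transcription factors Tbx1 (12.3, 11.8 and 13.0 CPM against 129, 134 and 132 CPM), Tbx2 and Tbx3, the LIM factor Lmx1a and the growth factor Fgf9 were all low in surface ectoderm of each library. Sox10 had 8.69, 1.47 and 8.65 CPM in surface ectoderm, against 69.6, 109 and 120 CPM in otic epithelium. Slitrk6 had 2.90, 1.47 and 2.59 CPM, against 79.6, 82.8 and 62.7 CPM. The others with the largest differences were Oc90 (below), BC006965, Spp1, Trpm3, Rgcc, Ddah1, Car2 and Sorbs2. Whether each of these marks otic tissue was not tested. Of the 28 otic genes on the list kept apart from the rule, 12 reached 50 CPM in all 3 libraries of a class. A gene that reaches this level only in the class where it is high has to differ, so counts of listed genes at this level describe the values and support nothing. Across all 3281 genes, 36% were lower in all 3 libraries and 26.9% higher.

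The keratins at the highest levels were those of a simple epithelium. Krt8 stood at 394, 439 and 341 CPM in surface ectoderm against 229, 209 and 222 CPM in otic epithelium, and its partner Krt18 at 330, 357 and 248 CPM against 321, 321 and 344 CPM, so that the ranges of Krt18 overlapped. Krt7 differed most of these, with 162, 201 and 258 CPM against a mean of 17.1 ± 1.71 CPM (SD, n = 3). The keratins Krt4, Krt13, Krt16 and Krt77 had no UMI in surface ectoderm. The desmosomal genes Dsg3, Dsc3 and Pkp1 and the cornified-layer genes Ivl and Flg had none either. The basal keratin Krt5 had 2.90, 5.90 and 9.51 CPM, and the basal keratins Krt14 and Krt15 were each found in some cells (above).

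Basement membrane genes had 13 of 26 list members at 50 CPM or more, some of them, Npnt and Lamb1 included, only through surface ectoderm. Npnt (nephronectin, an integrin ligand of basement membranes) had 315, 335 and 245 CPM in surface ectoderm, against 39.8, 33.7 and 33.6 CPM in otic epithelium. Itga6, a subunit of the hemidesmosomal integrin, had 222, 187 and 118 CPM against 77.1, 67.2 and 64.1 CPM, and the laminin gene Lamb1 had 109, 122 and 80.4 CPM against 32.9, 26.0 and 28.3 CPM. Among 10 junction genes at 50 CPM, 7 were higher and 1, the neural cadherin Cdh2, was lower in every library. Across all genes, 26.9% were higher and 36% lower. Cdh1 (E-cadherin), which passed this level only through surface ectoderm, had 103, 91.4 and 77.8 CPM against 31.1, 25.8 and 25.5 CPM.

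Of 3 Wnt ligand and secretion genes at 50 CPM outside the rule, Wnt4 and Wls were higher and Rspo3 lower than in otic epithelium in every library, and of 3 Wnt response genes 1 was higher and 2 lower, too few to describe either group. Wnt4 had 227, 242 and 337 CPM in surface ectoderm, against 10.9, 11.3 and 23.8 CPM in otic epithelium. Wls, needed to secrete Wnt proteins, had 340, 537 and 423 CPM against 132, 97.7 and 93.3 CPM. Rspo3, a Wnt enhancer, was lower in surface ectoderm, at 22.5, 13.3 and 5.19 CPM against 151, 87.2 and 122 CPM. Of the response genes, the receptor gene Tnfrsf19 had 55.8, 59.0 and 81.3 CPM against 28.5, 26.2 and 22.9 CPM, and Sfrp1, a secreted Wnt antagonist, had 79.7, 92.9 and 72.7 CPM against 149.8, 292 and 266 CPM. Ccnd1 (cyclin D1) had 146, 59.0 and 181 CPM against 774, 937 and 801 CPM, Sp5 had at most 1.73 CPM against at least 19.2 CPM, and Axin2 had 27.5, 11.8 and 19.9 CPM against 42.6, 33.7 and 28.4 CPM.

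Genes of the insulin-like growth factor axis were among the higher ones. Igf2 had 379, 755 and 511 CPM in surface ectoderm, against 66.9, 67.1 and 56.4 CPM in otic epithelium. Its imprinted neighbour H19 had 1442, 1700.4 and 1412 CPM against 372, 294 and 303 CPM. The binding protein Igfbp5 had 2591, 2427 and 1279 CPM against 459, 242 and 311 CPM, and Igfbp2 had 1025, 1228 and 2554 CPM against 163, 134 and 204 CPM. Plagl1, an imprinted zinc finger gene, had 112, 103 and 35.5 CPM against 5.74, 3.78 and 4.70 CPM. Fgfr2, the FGF receptor of epithelia, had 129, 186 and 148 CPM against 40.7, 35.7 and 38.8 CPM. Of the 9 imprinted genes at 50 CPM, 5 were higher and 3 lower in every library, beside 26.9% and 36% of all genes.

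Cell cycle genes were mostly at lower levels. Of 18 genes of G2 and M phase, 17 were lower in surface ectoderm than in otic epithelium in every library, with a median log2 ratio of -0.52, and of 16 S phase genes 9 were lower and 1 higher, beside 36% of all genes lower and 26.9% higher. Cells of surface ectoderm also had fewer UMIs, and the part of depth in these levels was not tested.

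Genes of other tissues were looked for in the selected cells. Of 13 pharyngeal endoderm genes, 10 had no UMI, Foxa1, Foxa2, Pax1 and Shh among them, nor had Pitx1, Cryaa and Foxe3 of oral and lens ectoderm. The endothelial genes Pecam1 and Tie1 and the macrophage genes Ptprc, C1qa and C1qb were at 0, and the 10 macrophage genes summed to at most 5.2 CPM in any library. Genes of several other tissues were present. The 12 mesenchyme genes summed to 277, 173 and 312 CPM in surface ectoderm, against 204, 119 and 241 CPM in otic epithelium and 2546, 2396 and 2248 CPM in mesenchymal cells, and 5 of 72, 1 of 42 and 9 of 73 cells held at least 3 of 6 mesenchyme genes. The 10 neuronal genes summed to 280, 292 and 282 CPM in surface ectoderm, against 366, 271 and 387 CPM in otic epithelium, and the 10 neural tube genes to 861, 493 and 597 CPM, against 1094, 1054 and 1048 CPM. The part of RNA from these tissues in the results below was not tested.

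The 187 cells fell into 4 clusters, which are described only, since clusters are made from the same counts. A group of 52 cells led by Nectin4, Ddit4, Bmp4, Dsp and Cldn3 had low Top2a (39.4 CPM against 508 CPM in the other cells) and more of the periderm genes Grhl3 (37.9 against 7.51 CPM), Sfn (343 against 172 CPM) and Gabrp (16.0 against 2.77 CPM). Its Krt19 was level with the others (64.2 against 62.5 CPM), Krt17 was at 0 (against 1.58 CPM), and Itga6 of the basal side was also higher (241 against 161 CPM), as was Krt5. Krt4, a keratin of the periderm, was at 0 in it, and no cell type name is given. A second group of 38 cells was led by mitotic genes (Hmmr, Prc1, Cenpf). The third, of 52 cells, held all 9 cells called as doublets and was led by Fabp7, Neurod1, Ccnd1, Twist1 and Prrx1, with replication genes. Some of these came from few of its cells, Fabp7 from 9.62%, Neurod1 from 13.5%, Twist1 from 19.2% and Prrx1 from 30.8%, but Ccnd1 from 63.5%. At Leiden resolution 1 the 9 doublets fell in a group of 18 cells with a median of 35577 UMIs, also led by Fabp7. The fourth, of 45 cells, was led by Piezo2, Wnt10a, Lgals1 and Igfbp2, and 34 of its cells came from WT replicate 2, so it may stand for that library and not for a kind of cell.

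The libraries were not equally alike. Of 3305 genes at a mean of 50 CPM or more in surface ectoderm, 13 differed more than 2-fold between CD replicate 1 and WT replicate 1 (0.393%), 55 between CD replicate 1 and WT replicate 2 (1.66%), and 47 between WT replicates 1 and 2 (1.42%). WT replicate 2 thus stood apart from both others, and results below that rest on it are given without it. In surface ectoderm of CD replicate 1, WT replicate 1 and WT replicate 2, Igfbp2 had 1025, 1228 and 2554 CPM, the Wnt ligand gene Wnt10a 9.42, 13.3 and 47.6 CPM, and the proliferation gene Mki67 443, 344 and 170 CPM. The kinesin gene Kif11 had 88.4, 84.1 and 23.4 CPM. Of genes given above, Cxcl14 was highest in WT replicate 2 and Foxi2 and Plagl1 were lowest there, while Krt7 was spread over all 3 libraries.

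**Figure D2:**
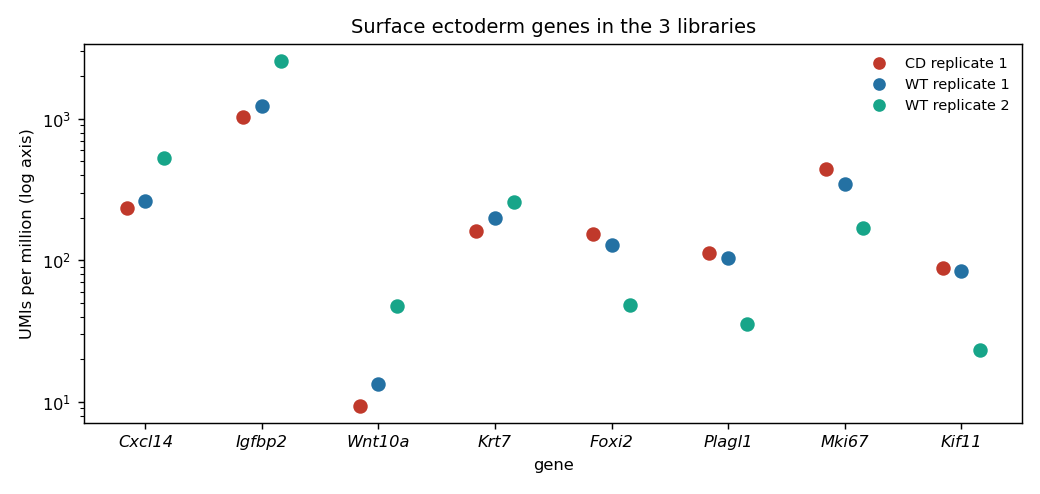
Level of 8 genes in surface ectoderm cells of the 3 libraries, in CPM on a log axis, with 1 point per library. WT replicate 2 lies apart for most of them, for example at 47.6 CPM of Wnt10a, while Krt7 is spread over all 3 libraries.

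CD was then compared with both WT libraries, which asks what 1 truncated Sox9 allele changes in the surface ectoderm. Sums over the cells were tested with edgeR's quasi-likelihood test with Benjamini-Hochberg adjustment at 0.05, with 1 residual degree of freedom from the WT pair and the lone CD library assumed to vary like WT. The prior degrees of freedom were infinite, so the p-values rest on the spread shared over all genes and not on each gene's own. In all, 12 of 9817 genes were called (0.122%): 9 rose (0.0917%) and 3 fell (0.0306%). An unadjusted p under 0.05 was found for 379 genes, where uniform p-values give 491, and the median log2 fold change over all genes was -0.0012.

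Of the 9 genes that rose, 5 were haemoglobin genes. Hbb-bh1, an embryonic beta-like globin gene, had 253 CPM in CD replicate 1, against 53.1 and 44.1 CPM in WT replicates 1 and 2 (CD over WT log2 2.30 ± 0.28 SE, edgeR adjusted p = 2.7e-12). Hba-x, Hba-a1, Hba-a2 and Hbb-y rose by log2 1.41 to 1.86. A single cell held 1700 of the 2856 haemoglobin UMIs of the CD cells (59.5%), and the next cell held 44. Without that cell 7 genes were called, 4 rose and 3 fell, and no haemoglobin gene was among them, an alternative chosen after seeing the data. Haemoglobin genes summed to 6869, 3798 and 6340 CPM in otic epithelium of CD replicate 1, WT replicate 1 and WT replicate 2.

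The other 4 that rose were Lzts1, Fabp7, Fat3 and Atxn2l, and the first pair rested on 1 cell each. Fabp7, a fatty acid binding protein of radial glia, had 85 UMIs in CD replicate 1, against 1 and 9 UMIs in WT replicates 1 and 2, and 64 of the 85 were in 1 cell (CD over WT log2 3.39 ± 0.46 SE, edgeR adjusted p = 1.0e-09). Lzts1, a leucine zipper gene, had 43 UMIs against 2 and 1, with 34 of the 43 in 1 cell. The protocadherin gene Fat3 had 29.0 CPM in CD, against 5.90 and 0.865 CPM in WT, from 18, 4 and 1 cells. Atxn2l, an RNA-binding protein gene, was spread most evenly, at 85.5 CPM in 43 of 72 CD cells, against 33.9 CPM in 18 of 42 and 28.5 CPM in 27 of 73 WT cells (CD over WT log2 1.37 ± 0.33 SE, edgeR adjusted p = 0.020). When each gene's highest cell in each library was left out of its sum, also chosen after seeing the data, 3 genes were called and none rose. Atxn2l then had a log2 fold change of 1.34 and an edgeR adjusted p of 0.092. Its rise was called under only 7 of 14 alternatives, with log2 values down to 0.75. Among those that missed were 5000 UMIs per cell, equal cells per library, 0 otic UMIs and DESeq2. Without WT replicate 1 or WT replicate 2, the log2 change was 4.11 or 3.03 for Lzts1, 2.83 or 4.66 for Fabp7 and 4.01 or 2.12 for Fat3, with no test.

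The genes that fell were Oc90, Xist and Tsix. Oc90, the main otoconial protein gene of otic epithelium, had 2.17 CPM in CD, against 8.85 and 57.9 CPM in WT replicates 1 and 2 (CD over WT log2 -4.12 ± 0.63 SE, edgeR adjusted p = 1.3e-07, and -1.63 without WT replicate 2). These were 3 UMIs in CD, against 6 and 67 UMIs in WT. The fall was called under 11 of 14 alternatives, but not at 5000 UMIs per cell, without cells over 2 times the median UMIs or with DESeq2. In otic epithelium the same gene stood at 87.4 CPM in the CD library, against 541 and 1023 CPM in WT, and in mesenchyme at 1.77 CPM, against 8.25 and 33.3 CPM in WT. It was detected in 4.17% of CD surface ectoderm cells, against 9.52% and 49.3% of WT ones, beside 3.54%, 15.9% and 41.0% of mesenchymal cells. The part of RNA from otic cells in its surface ectoderm counts was not tested. Xist, the RNA of the inactive X chromosome of female cells, had 270 CPM in CD, against 1344 and 128 CPM in WT, so the CD value lay between the WT values. It was found in 17 of 72 CD cells, 37 of 42 cells of WT replicate 1 and 13 of 73 cells of WT replicate 2, and its log2 change was 1.07 without WT replicate 1 and -2.31 without WT replicate 2. Tsix, antisense to Xist, had 13.8 CPM in CD, against 121 and 10.4 CPM in WT, with changes of 0.38 and -3.05 without the same libraries. Whether the authors' counting used strand is not given in the sources used here.

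**Figure D3:**
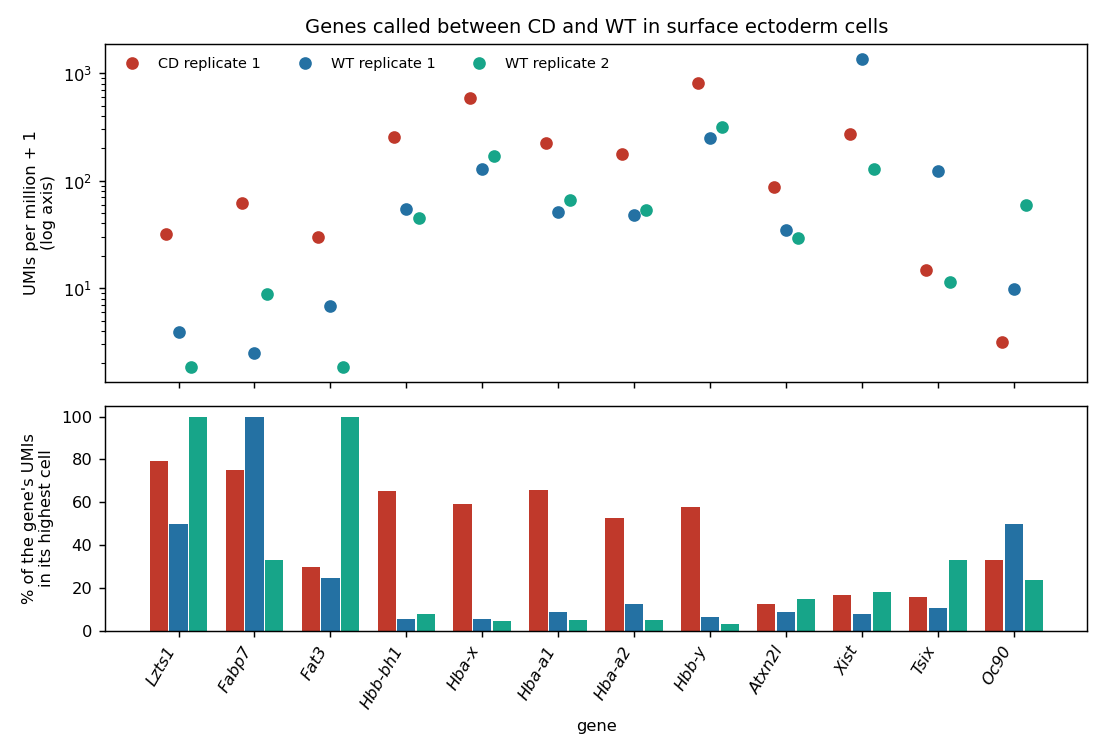
The 12 genes called between CD and WT in surface ectoderm cells. The upper panel gives CPM + 1 on a log axis in each library, and the lower panel gives the percent of a gene's UMIs that came from its highest cell, 75.3% for Fabp7 and 79.1% for Lzts1 in CD replicate 1.

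With 0.122% of all genes called, no call is what lists of this size would give, and the following counts are no result about ectoderm genes. None of 21 ectoderm transcription factor genes tested was called (median log2 fold change 0.25), none of 17 junction genes (0.24), 21 basement membrane genes (-0.07), 8 Wnt ligand genes (-0.16) or 6 keratin genes (-0.61). For Tfap2b the log2 fold change was -0.11 ± 0.28 SE, for Sostdc1 -0.41 ± 0.30 SE and for Sfn -0.21 ± 0.28 SE (edgeR adjusted p = 1.00 for each). Wnt10a came nearest among the ligands, with 9.42 CPM in CD against 13.3 and 47.6 CPM in WT (CD over WT log2 -1.90 ± 0.48 SE, edgeR adjusted p = 0.053), and its change was -0.45 without WT replicate 2. Wdcp (-1.56 ± 0.39 SE), Dqx1 (-2.45 ± 0.65 SE) and Eva1b (-1.37 ± 0.37 SE) also missed the threshold, and without WT replicate 2 their changes were -0.67, -0.37 and -0.43. In that library 1 cell held 31 of 76 Wdcp UMIs and 26 of 40 Dqx1 UMIs. A p that misses the threshold does not show that levels were equal.

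Sox genes were looked at because Sox9 carries the mutation. Sox9 had 130 CPM in CD surface ectoderm, against 69.3 and 71.8 CPM in WT (CD over WT log2 0.78 ± 0.28 SE, edgeR adjusted p = 0.83), and in otic epithelium 701 CPM, against 409 and 344 CPM in WT. It was detected in 51.4% of CD surface ectoderm cells and in 50.0% and 45.2% of WT ones, below otic epithelium and mesenchyme, where over 80% of cells had a UMI. CD was the highest of the 3 libraries, and the difference did not pass the test. Of 10 Sox genes tested 9 had a positive change, beside 49.8% of all genes tested, and their median log2 fold change was 0.41. None was called, as for nearly all genes (0.122% called).

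The difference between CD and WT was then compared between surface ectoderm and otic epithelium of the same libraries, with an interaction term and the library as a block in edgeR. It was called different for 24 of 16267 genes (0.148%), higher in surface ectoderm for 15 (0.0922%) and lower for 9 (0.0553%). An unadjusted p under 0.05 was found for 502 genes, where uniform p-values give 813. Of the 15, 4 were haemoglobin genes, and Fabp7, Fat3 and Atxn2l (above) were called as well, Atxn2l under only 5 of 14 alternatives. Gbx2 and Adamts5 had 18 and 17 UMIs in CD surface ectoderm, in 4 and 3 cells, and no UMI in WT, and no fold is given for counts of so few cells.

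Fxyd3, a regulator of the sodium pump in epithelia, gave the smallest p. It had 84.8 CPM in CD surface ectoderm, against 81.1 and 87.4 CPM in WT, and 7.41 CPM in CD otic epithelium, against 32.9 and 46.5 CPM in WT. The CD value lay within the WT values in surface ectoderm and below both in otic epithelium. The log2 difference between the classes was 2.39 ± 0.28 SE (edgeR adjusted p = 3.3e-13), and it was called under all 14 alternatives that gave a test, with values up to 2.60, and was 2.46 and 2.08 without WT replicates 1 and 2. Cuedc2, a ubiquitin-binding protein gene, had the same form. It had 103 CPM in CD surface ectoderm, against 95.9 and 118 CPM in WT, and 144 CPM in CD otic epithelium, against 286 and 369 CPM in WT (difference 1.09 ± 0.24 SE, edgeR adjusted p = 0.0090).

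Hapln1, Wls and Igf2 differed the other way. Hapln1, which links hyaluronan to proteoglycans, had 229 CPM in CD surface ectoderm, against 355 and 398 CPM in WT, and 14.7 CPM in CD otic epithelium, against 8.38 and 9.05 CPM in WT. It was lower in CD than in both WT libraries in the one class and higher than both in the other (log2 difference -1.52 ± 0.21 SE, edgeR adjusted p = 3.3e-09). It was called under 13 of 14 alternatives, and at 5000 UMIs per cell it was -1.16 with an edgeR adjusted p of 0.41. Wls had 340 CPM in CD surface ectoderm, against 537 and 423 CPM in WT, with a difference of -0.995 ± 0.20 SE (edgeR adjusted p = 0.0014). Igf2 had 379 CPM in CD surface ectoderm, against 755 and 511 CPM in WT, while its otic values did not separate the genotypes (difference -0.87 ± 0.20 SE, edgeR adjusted p = 0.012). Within surface ectoderm alone, none of Hapln1, Wls and Igf2 was called (edgeR adjusted p = 0.80, 1.00 and 0.83). The hyaluronan-binding proteoglycan gene Vcan had 124 CPM in CD surface ectoderm, against 64.9 and 54.5 CPM in WT, and 179 CPM in CD otic epithelium, against 226 and 172 CPM in WT (difference 1.15 ± 0.25 SE, edgeR adjusted p = 0.0043). Of 14 alternatives, Wls was called under 12, Igf2 and Cuedc2 under 11 each and Vcan under 9, and all 4 missed the threshold at 5000 UMIs per cell and with DESeq2.

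**Figure D4:**
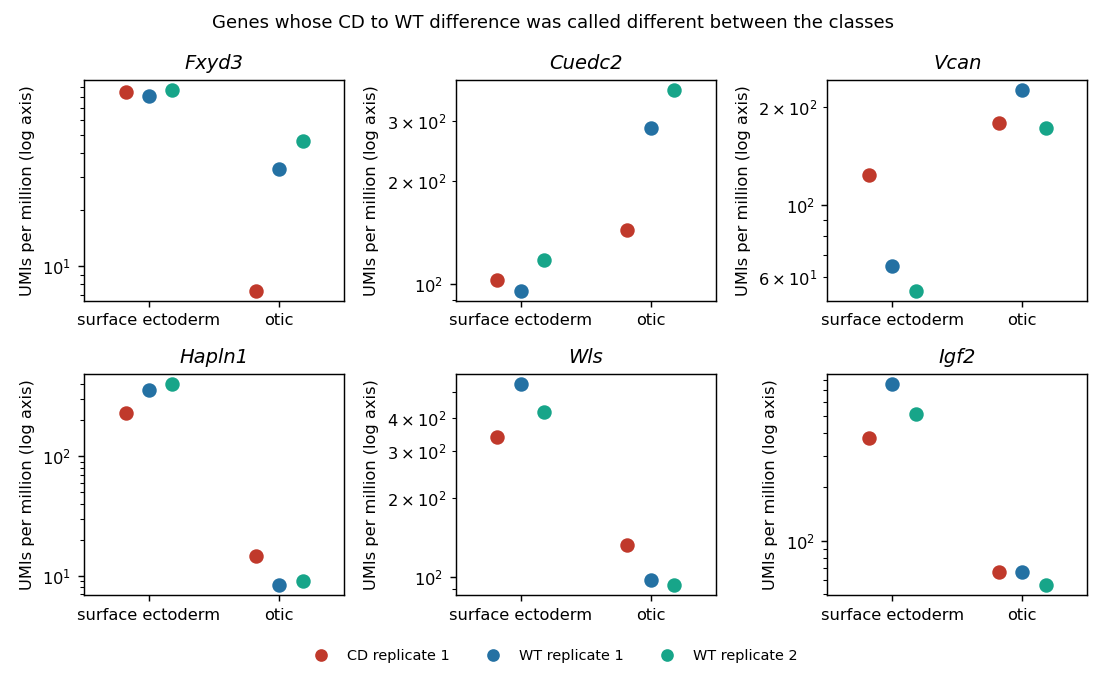
Level in CPM on a log axis for 6 genes in surface ectoderm (left in each panel) and otic epithelium (right), with 1 point per library. For Fxyd3 the 3 libraries coincide in surface ectoderm (81.1 to 87.4 CPM) while CD replicate 1 lies lowest in otic epithelium (7.41 CPM).

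The other called differences depended on 1 WT library or on few cells. Without WT replicate 2 the log2 difference was 0.46 for the claudin gene Cldn3 (1.04 with it), -0.32 for Cxcl14 (-1.27), 0.15 for the microtubule gene Map1b (0.88), 0.51 for the nuclear receptor gene Nr2f1 (0.93), -1.05 for Wdcp (-1.81) and -0.53 for Dqx1 (-3.04). Crabp1, a retinoic acid binding protein gene, had 331 of its 470 UMIs of WT replicate 1 in 1 cell, and its difference of -0.96 was 0.048 without that library. Xist and Tsix differed by -1.05 and -1.99, and by 0.044 and -0.80 without WT replicate 1.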

How the data were processed

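Droplet libraries of 3′ transcript ends were made from pooled E10.5 otic vesicles, 1 from Sox9Y440X/+ and 2 from wild type embryos. The authors deposited UMI counts per gene and barcode, made with Cell Ranger 6.0.0 per the file headers, and the submitters' processing notes name the build mm39. The 3 libraries held 186439890 (CD replicate 1), 157373393 (WT replicate 1) and 202584468 (WT replicate 2) UMIs over 32285 genes. Surface ectoderm, otic epithelium and mesenchyme (cells with no Epcam UMI, at least 3 of 6 mesenchyme genes, at most 1 otic UMI and under 3 markers) were taken by fixed thresholds, and counts were summed per class and library. Doublets called with Scrublet (expected rate 5%) stayed in, and an alternative leaves them out. The members and gene lists were chosen with earlier results of these data known.

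CD was compared with both WT libraries, and the CD difference in surface ectoderm with that in otic epithelium, by edgeR 4.0.16 (R 4.3.3, quasi-likelihood test, TMM scaling), with Benjamini-Hochberg adjustment over all genes tested. The code was tested on simulated data. Sub-clusters used scanpy 1.11.5 (1000 variable genes, 20 components, Leiden resolution 0.5). Alternatives changed the tool (DESeq2 1.42.0), scaling, gene filter, cell rule, depth and libraries. Intervals are exact Clopper-Pearson 95% intervals.

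The text names the 15 genes per direction with the largest smallest ratio over the 3 libraries among those at 50 CPM or more, leaving out predicted, mitochondrial, ribosomal, haemoglobin, Xist and Y-linked genes. Between genotypes it names up to 10 called genes per direction at a mean of 10 CPM or more, whose change exceeded the gap between WT libraries, and with under 3 of these the 5 of smallest p. Haemoglobin genes, Xist, Tsix and the other called genes were named after their values were seen. Of the 15 higher genes, 1 is not reported here, nor are some members of the gene lists.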

Additional observations from a re-analysis of the deposited data

Results flagged for a closer look

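The difference between CD and WT differed between surface ectoderm and otic epithelium for 9 named genes, by the interaction test in edgeR over 3 libraries. The log2 difference, surface ectoderm minus otic epithelium, was 3.69 for Fabp7, 2.39 for Fxyd3, 1.20 for Atxn2l, 1.15 for Vcan and 1.09 for Cuedc2. It was -1.81 for Wdcp, -1.52 for Hapln1, -0.995 for Wls and -0.87 for Igf2. For Fxyd3 and Cuedc2 the CD value lay within the WT values in surface ectoderm and below both in otic epithelium. For Fabp7, 64 of the 85 CD UMIs were in 1 cell. Atxn2l was called under 5 of 14 alternatives, with values down to 0.59. For Wdcp the difference was -1.05 without WT replicate 2. What sets these differences was not tested.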

How the results depend on the processing

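CD and WT libraries were not paired with each other, because the labels do not link a CD pool to a WT pool. The 12 genes called between CD and WT were 22 (12 rose, 10 fell) without called doublets, 3 with cells thinned to 5000 UMIs and 2 with DESeq2. Under settings chosen after seeing the data they were 5 without cells over 2 times the median UMIs, 7 without the haemoglobin-rich cell and 3 without each gene's highest cell. The 24 differences between the classes were 14 with 0 otic UMIs, 6 when thinned, 15 with equal cells per library and 5 with DESeq2, and, also chosen after seeing the data, 14 without cells with 3 mesenchyme genes and 14 without each gene's highest cell. At 2-fold in place of 4-fold, 200 genes were apart in place of 79, and leaving out a WT library gave 81 and 99. With 4 markers the share was 0.655% in CD replicate 1 and 0.411% in WT replicate 1, and after thinning 0.454%, 0.409% and 0.417%. At resolution 1 there were 7 sub-clusters.

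Signs turned as follows, and the cause was not tested. Between CD and WT, Tsix ranged from -3.05 to 0.38 and Xist from -2.31 to 1.07 when a WT library was left out. In the class difference, Xist ranged from -1.79 to 0.044 and Crabp1 from -1.77 to 0.048 in the same way. Crabp1 was 0.16 without doublets, 0.063 with 4 markers and 0.24 with 0 otic UMIs. Fabp7 was -1.23 with equal cells and Adamts5 -0.33 without deep cells. Hba-a1 was -0.17 and Hba-a2 -0.044 with 4 markers, and Hba-a1 was -0.18 without cells with mesenchyme genes, -0.16 without the haemoglobin-rich cell and -0.085 without each highest cell. Over all results and settings, 437 values were counted as the same, 158 fell short of a threshold, 10 newly passed one, 28 moved and 14 changed sign. Those counted as the same include counts and shares that moved little, and genes uncalled in both settings. Depth limits genes under about 50 CPM, since the sums held at most 1380277 UMIs.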
